A study of Rattus norvegicus with 39 samples.

Results

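The genes described here encode parts of the ubiquitin-proteasome system, measured in ribosome-bound mRNA of nucleus accumbens (NAc) neurons of female rats. They were chosen by name: a gene entered when its identifier was paired with a symbol beginning with Ube, Ubr, Usp, Ubqln, Ubx, Psm, Fbx, Rnf, Trim, Cul, Klhl or Otud, and when it had at least 10 counts in at least 5 of the 39 libraries. Psmb8 and Psmb9 were left out by the same rule. Of 56 candidates, 54 remained after those exceptions. Trim10, Trim40, Fbxo40 and Klhl6 fell under the count minimum, which left 50 genes of the 23978 in the count table. Symbols were readable for 1966 identifiers, all low-numbered ones, so the 50 are the readable part of the family and not the whole of it. They comprised 14 RING finger proteins, 10 components of cullin ligases, 8 members of the deubiquitinase family, 6 TRIM proteins, 4 conjugating enzymes, 4 proteasome subunits, 2 proteasome assembly chaperones and 2 ubiquitin receptors or adaptors.

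Ubiquitin is passed from an activating to a conjugating enzyme and then, with the help of a ligase, onto a target protein. Many RING finger and TRIM proteins act as ligases, whereas cullins build larger ligases that use F-box or Klhl proteins to hold the target. Chains of ubiquitin can send a protein to the proteasome, and deubiquitinases take them off again. In neurons this system takes part in the turnover of synaptic proteins.

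The rats were adult female Long-Evans animals, heterozygous for Drd1a-iCre (D1-Cre) or Drd2-iCre (D2-Cre). Each carried in the NAc a Cre-dependent AAV that put an HA tag on the ribosomal protein Rpl22 (RiboTag), so that polyribosomes of D1 or D2 medium spiny neurons (MSNs) could be pulled down from 1 animal at a time. Tagging depends on viral infection and on Cre in any cell that uses the Drd1a or Drd2 promoter, so the tagged cells need not all be MSNs. Rats received 6 intermittent injections of saline or of 10 mg/kg ketamine, always in proestrus or always in diestrus, and tissue was taken 4 days after the last one, following 30 min in the treatment context. Controls therefore carried the transgene, the virus and the injections as well. By the study's methods, ketamine rats were kept on the basis of their locomotor response, which saline rats were not. Crossing cell type, stage and treatment gave 8 groups of 5 libraries each, except for 4 libraries in the proestrus ketamine D2 group. A library is 1 rat, so p-values measure the spread between rats.

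Total counts per library ran from 16118050 to 24784447, except for D2 diestrus saline library 39 with 2396517 counts and D2 proestrus ketamine library 22 with 43224256. Adora2a, the adenosine receptor that marks D2-MSNs, was the only MSN marker among the paired genes. It was D2-biased in saline (923 ± 104 against 177 ± 22.8 counts per 1e6 library counts (CPM), SD, n = 10 each; log2 fold change 2.38, edgeR adjusted p = 2.91e-15) and in ketamine libraries (826 ± 168, n = 9, against 179 ± 25.1, n = 10; 2.14, adjusted p = 2.75e-10). D2 diestrus ketamine library 32 had 455 CPM of Adora2a, below the 768 to 1010 CPM of the other D2 ketamine libraries. Summed markers of other cells were at different levels in D1 and D2 libraries, with overlapping ranges. The summed CPM of 7 glial and vascular genes ranged from 40.0 to 62.1 in D1 and from 50.6 to 147 in D2 libraries. Of the 7, 3 were D2-biased in saline (Gja1, Mog, Flt1), against 14.6% of all genes tested. In ketamine libraries 2 of 7 were (Gja1, Flt1), against 8.16%. Gfap, Aif1, Tmem119 and Rgs5 were D2-biased in neither. The interneuron genes Sst and Nos1, also summed, ranged from 247 to 833 CPM in D1 and from 71.9 to 288 CPM in D2 libraries. None of these 9 markers was at 0 in any library. Their part in the D1/D2 differences below was not tested, and in such pull-downs fewer cells of a type and less RNA per cell cannot be told apart.

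All values per gene are CPM after TMM scaling. Mean levels of the 50 genes ran from 0.205 CPM (Usp43) to 410 CPM (Ubqln2), with a median of 53.3 CPM; transcript length enters these values, so they order no gene against another. Most genes of the system were flat across the design. The highest of the 8 group means was less than 1.2 times the lowest for 36 of the 50 genes (72.0%), against 50.3% of the 14125 genes with the same minimum counts. Much of that gap went with abundance, since at 20 CPM or more the share was 86.8% of 38 genes against 78.7% of 7222. The deubiquitinase Usp9x ran between group means of 352 and 377 CPM, and Klhl22, a substrate adaptor of a cullin ligase, stayed between 97.4 and 112 CPM over all 39 libraries with a coefficient of variation of 3.37%. The 4 proteasome subunits had ratios of highest to lowest group mean of 1.07 to 1.12. Ratios of 2.53 and 2.27 for Trim25 and Usp43 rest on group means of 0.152 to 0.383 and 0.112 to 0.254 CPM. Among the genes tested, wider ratios belonged to the assembly chaperone Psmg3 (1.69), Rnf39 (1.64), Trim16 (1.62) and Trim7 (1.59), of which the last 3 are low in counts. Trim25 (0 to 13 counts per library) and Usp43 (0 to 21 counts) were too low to be tested in any comparison of 2 groups, which left 48 genes.

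The first comparison asked which genes differ between D1- and D2-MSNs. Differential expression (DE) stands for an edgeR adjusted p under 0.1, and a positive log2 fold change means higher in D2. In saline libraries (n = 10 each), 16 of 48 genes (33.3%) were DE, 8 with D2-bias and 8 with D1-bias, where 28.8% of all 13689 genes tested were called (14.6% D2-biased, 14.1% D1-biased). At an unadjusted p under 0.05 there were 20 of 48 (41.7%) against 33.9%. In ketamine libraries (9 D2, 10 D1), 10 of 48 (20.8%) were DE, 4 D2-biased and 6 D1-biased, where 18.0% of 13850 genes were called (8.16% D2-biased, 9.83% D1-biased), and 16 of 48 (33.3%) against 25.2% had an unadjusted p under 0.05. Both shares lie near the background of the genome. The median absolute log2 fold change was 0.0762 in saline against 0.102 for all genes, and 0.0455 against 0.0789 in ketamine. These medians were not matched for abundance. The median level was 53.3 CPM, against 21.2 CPM for all genes with the same minimum counts. At 20 CPM or more, the median ratio of highest to lowest group mean was 1.12 for these genes and for all genes. The 2 sets of libraries share no rat. Across them 31 of 48 genes (64.6%) had the same direction, against 67.1% of 13639 genes, and 4 were DE in both (25.0% of the saline and 40.0% of the ketamine calls, against 37.7% and 60.3% for all genes). Usp25, Rnf19b and Usp16 kept their direction and Trim7 did not.

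The saline count depended on single libraries far more than the ketamine count did. It dropped to 3 of 48 without D1 proestrus library 1, to 4 without library 17 and to 6 without library 25 of the same group. It was 6 without D2 diestrus library 39, 7 without D2 proestrus library 5, 9 without D2 diestrus library 7 and 10 without D1 diestrus library 3. The share of all genes called fell with it, to 8.96% without library 1 and 13.9% without library 39. Over the 19 fits with 1 ketamine library left out the count stayed between 8 and 12. Usp25 and Rnf19b were the only saline calls that held in every fit with a library left out and under every alternative setting. In ketamine Usp25, Rnf19b, Rnf112, Ubqln2, Rnf2 and Psmg3 did.

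**Figure D1:**
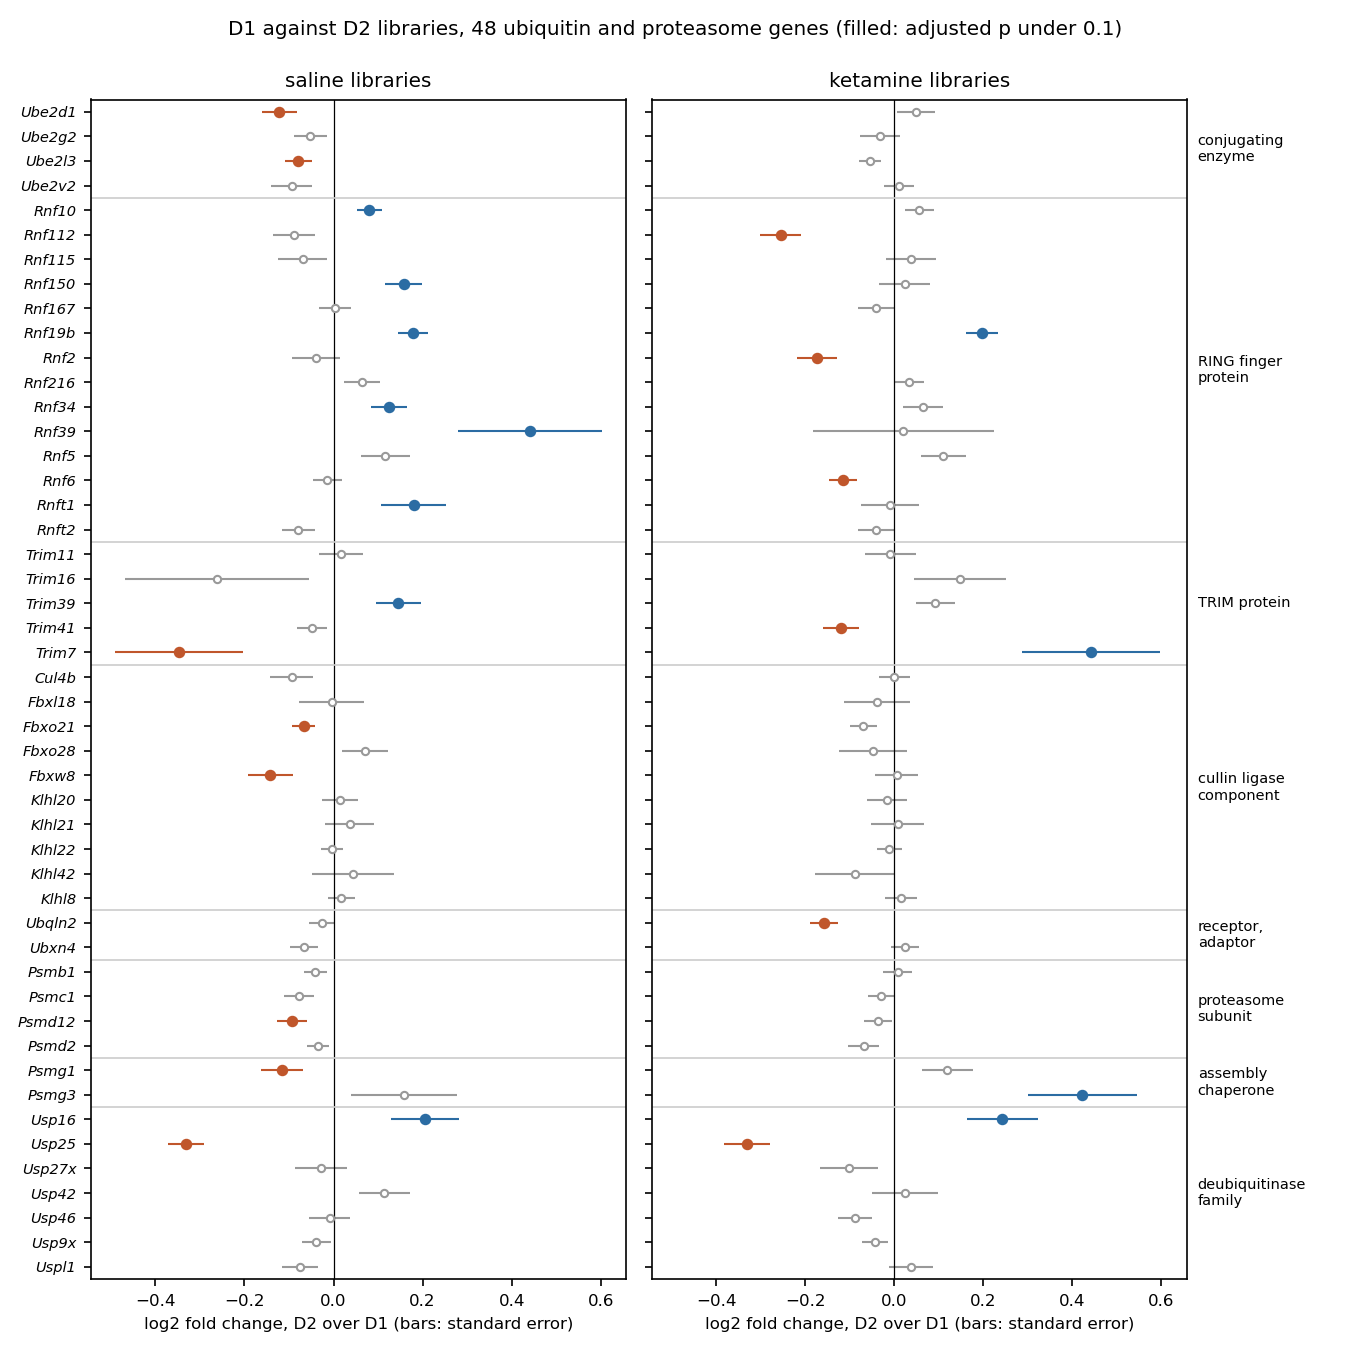
Log2 fold changes (D2 over D1, with standard error bars) of the tested ubiquitin and proteasome genes in saline and in ketamine libraries, with called genes filled. Most genes lie close to 0, and Usp25 (-0.33 in both) and Rnf19b (0.18 and 0.20) lie on the same side in both treatments.

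**Figure D2:**
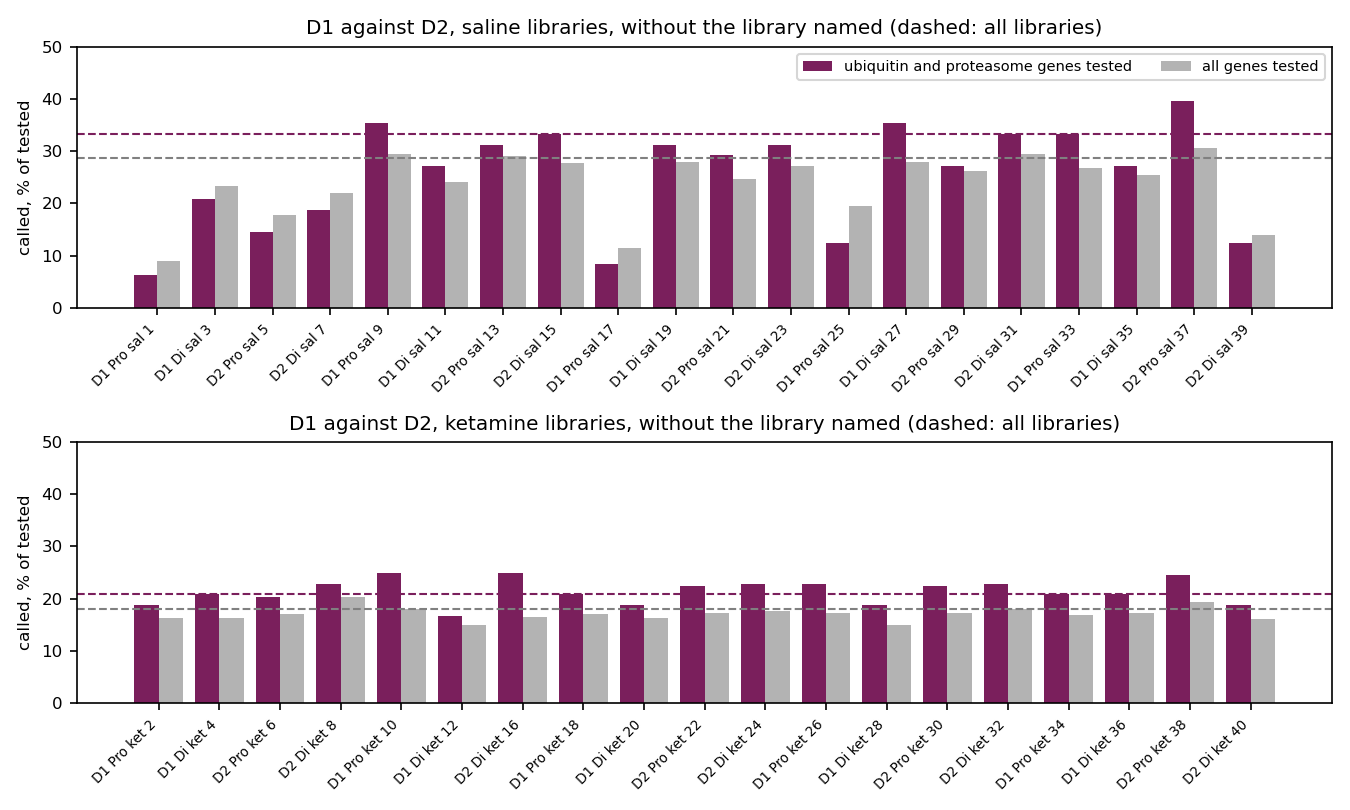
Share of genes called between D1 and D2 (%, vertical axis) when the library named on the horizontal axis is left out, for the ubiquitin and proteasome genes tested and for all genes tested, in saline and in ketamine libraries; dashed lines give the share with all libraries. In saline the share falls to 6.25% of the ubiquitin and proteasome genes without D1 proestrus library 1, together with the share of all genes, whereas the ketamine bars stay near their dashed lines.

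Usp25 (ENSRNOG00000001573), a deubiquitinase that trims ubiquitin chains from its targets, had the lowest adjusted p of the genes in both treatments, with D1-bias. In diestrus saline rats the D1 libraries had 38.7, 40.8, 41.0, 39.6 and 41.1 CPM and the D2 libraries 31.7, 30.8, 32.0, 32.5 and 40.6 CPM. In proestrus saline rats D1 libraries had 41.8, 40.7, 44.5, 39.9 and 38.1 CPM, against 29.6, 31.6, 33.7, 29.0 and 35.0 CPM in D2. The proestrus groups did not overlap, whereas in diestrus the D2 library at 40.6 CPM, which is the shallow library 39, reached into the D1 range. After ketamine, diestrus D1 libraries had 36.6, 38.6, 44.5, 40.2 and 42.5 CPM, and D2 libraries 30.4, 30.7, 27.9, 37.8 and 29.2 CPM. Proestrus D1 libraries had 43.4, 37.8, 38.2, 43.6 and 39.6 CPM, and D2 libraries 33.5, 31.6, 34.4 and 32.6 CPM. Again 1 diestrus D2 library sat among the D1 values, and it was library 32, the one with the lowest Adora2a of the D2 libraries. The log2 fold change was -0.33 (SE 0.0411, adjusted p = 6.63e-06) in saline and -0.33 (SE 0.0513, adjusted p = 6.48e-05) in ketamine. Without library 32 the ketamine value was -0.37, and without library 39 the saline value was -0.35. By exact permutation of the libraries, two-sided, p was 0.0238 in diestrus saline, 0.00794 in proestrus saline, 0.0159 in diestrus ketamine and 0.0159 in proestrus ketamine. The smallest p these groups allow is 0.00794, or 0.0159 with 4 against 5. All 22 DE genes were tested so in these 4 pairs of groups (88 exact tests, lowest Benjamini-Hochberg adjusted p = 0.0933). The same libraries had chosen the genes, so these p-values, here and below, are a description and no further support.

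Rnf19b (ENSRNOG00000000123), a RING-type ligase of the RBR class, showed the opposite bias. Diestrus saline D1 libraries had 77.4, 85.8, 78.0, 80.7 and 75.6 CPM, and D2 libraries 92.6, 91.7, 89.0, 88.3 and 87.4 CPM. In proestrus saline D1 libraries had 86.0, 73.9, 78.7, 76.6 and 79.0 CPM, against 93.8, 85.6, 84.1, 92.1 and 86.1 CPM in D2. Only the highest proestrus D1 library reached into the D2 range. After ketamine, diestrus D1 libraries had 80.1, 84.1, 75.2, 81.3 and 74.3 CPM and D2 libraries 100.7, 93.7, 92.6, 86.6 and 84.5 CPM. Proestrus D1 libraries had 86.0, 79.9, 75.6, 73.4 and 76.5 CPM, and D2 libraries 96.2, 90.1, 89.9 and 88.5 CPM. Neither ketamine stage showed an overlap. The log2 fold change was 0.18 (SE 0.0342, adjusted p = 0.000838) in saline and 0.20 (SE 0.037, adjusted p = 0.000628) in ketamine. Exact permutation p was 0.00794 in diestrus saline, 0.0238 in proestrus saline, 0.00794 in diestrus ketamine and 0.0159 in proestrus ketamine.

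The promoters of this pair are shown because their genes held opposite biases in every pooled fit. Sequences are the 250 bases before the start site in RefSeq on GRCr8, a later build than the mRatBN7.2 used for the counts, and both lie on the plus strand, Usp25 at chr11:29090403-29090652 and Rnf19b at chr5:146690327-146690576. Capitals mark the GC box (GGGCGG, or CCGCCC on the other strand) and the short CRE core (TGACG or its complement).
Usp25: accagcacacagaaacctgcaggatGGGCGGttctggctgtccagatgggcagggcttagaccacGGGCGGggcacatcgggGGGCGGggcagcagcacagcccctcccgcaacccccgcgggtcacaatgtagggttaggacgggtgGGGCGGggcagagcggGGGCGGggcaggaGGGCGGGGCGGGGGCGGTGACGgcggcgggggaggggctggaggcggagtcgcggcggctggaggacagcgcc
Rnf19b: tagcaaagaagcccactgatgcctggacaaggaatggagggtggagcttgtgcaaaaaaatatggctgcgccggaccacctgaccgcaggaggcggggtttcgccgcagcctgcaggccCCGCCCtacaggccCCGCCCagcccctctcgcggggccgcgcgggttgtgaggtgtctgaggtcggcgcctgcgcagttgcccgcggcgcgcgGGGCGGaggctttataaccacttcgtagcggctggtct
The Usp25 window held 8 GC boxes, some of them overlapping, 1 CRE core and 74.8% GC, and the Rnf19b window held 3 GC boxes, no CRE core and 67.2% GC. RefSeq entries were matched for 38 of the 50 genes. A GC box, searched on both strands, was in 21 of the 38 windows (55.3%), against 32.4% of all 27457 windows of this length, and the CRE core was in 12 (31.6%) against 19.0%. The full CRE (TGACGTCA), which contains the core, was in 0 of 38 windows against 1.7%, TGANNNNGC in 31.6% against 34.6% and the E-box CACGTG in 7.89% against 5.79%. Median GC content was 59.2% against 52.0%, a difference that goes with the GC box itself. The 38 genes had to pass the count minimum, whereas the 27457 windows were not limited so. These shares are therefore not matched for expression. These matches are letters in a window and were not tied to any measurement.

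**Figure D3:**
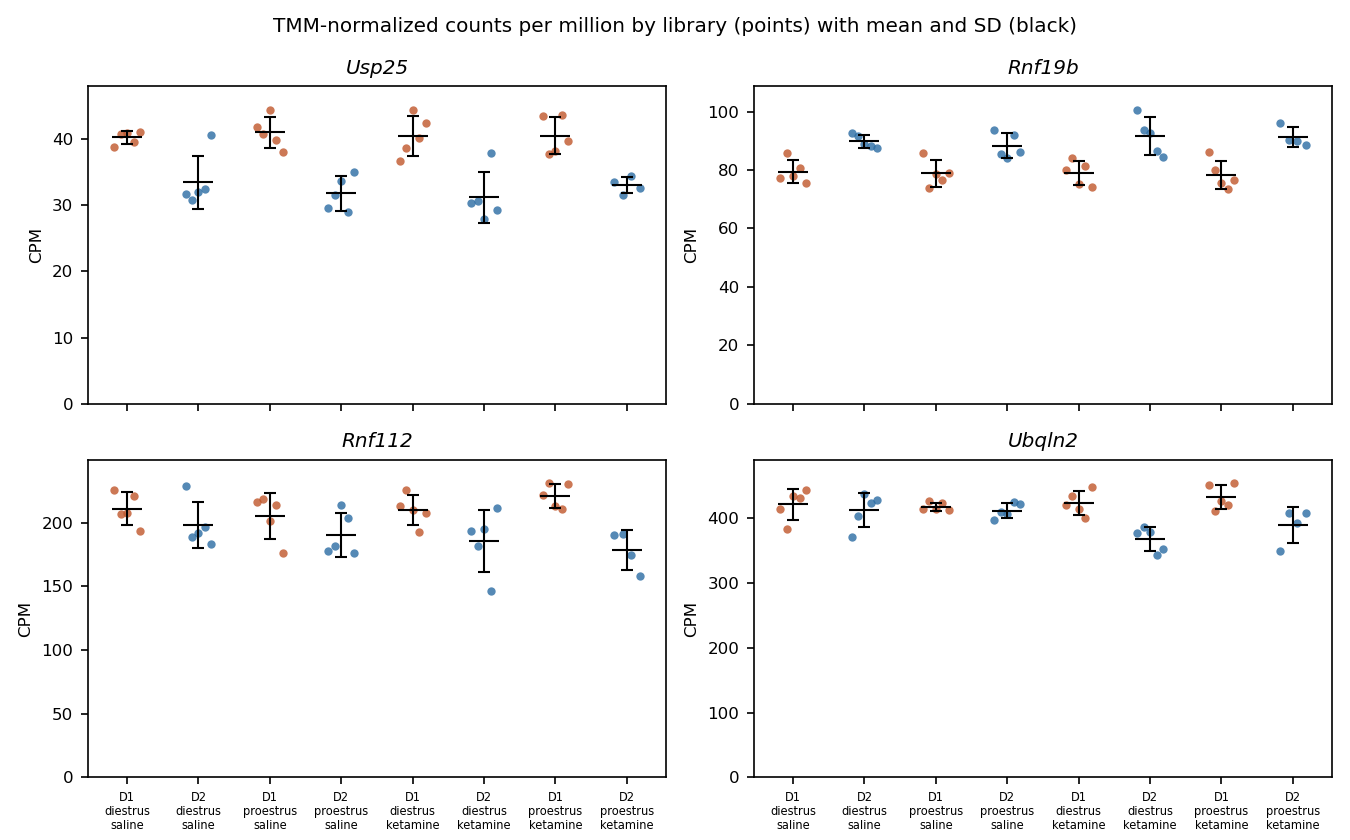
TMM-normalized CPM of Usp25, Rnf19b, Rnf112 and Ubqln2 in every library (points; vertical axis from 0) by group (horizontal axis), with mean and SD in black. Usp25 is lower and Rnf19b higher in D2 in each pair of groups, and Ubqln2 separates D1 from D2 in the ketamine groups, with group means between 368 and 433 CPM over the 8 groups.

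Conjugating enzymes carry the ubiquitin that a ligase passes on. In saline, 2 of 4 were DE, both D1-biased, against 28.8% of all genes called and 14.1% D1-biased, counts too small to set the class apart. Ube2d1, which works with many RING ligases, had 26.9, 32.6 and 34.0 CPM as the lowest, median and highest of 10 D2 libraries and 31.3, 34.1 and 39.6 CPM in D1 (log2 fold change -0.12, SE 0.0397, adjusted p = 0.0336). Its proestrus saline groups did not overlap, with D1 libraries at 34.0 to 39.6 CPM and D2 libraries at 32.6 to 34.0 CPM. Ube2l3, a partner of HECT and RBR ligases, had 165 ± 8.32 CPM in D2 and 175 ± 7.81 CPM in D1 (-0.079, adjusted p = 0.0719). Ube2v2, the catalytically inactive partner in lysine-linked chain building, had -0.094 (adjusted p = 0.156), and Ube2g2, known from the disposal of endoplasmic reticulum proteins, -0.052 (adjusted p = 0.347). None of the 4 was DE in ketamine libraries, where the lowest adjusted p was that of Ube2l3 (-0.054, adjusted p = 0.184). Ube2l3 was called there without library 32 (-0.069, adjusted p = 0.0786), in 2 of 19 left-out fits in all, and under 1 of 10 other settings. Ube2d1 had 0.049 in ketamine (adjusted p = 0.54). Ube2d1 lost its saline call in 5 of 20 fits with a library left out and Ube2l3 in 8 of 20. Among these were the fits without D1 proestrus library 1 and without library 39.

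Of the 14 RING finger proteins, the largest class here, 6 (42.9%) were DE in saline, all with D2-bias, against 28.8% of all genes called and 14.6% D2-biased. Besides Rnf19b these were Rnf150 (59.1 ± 4.44 against 52.6 ± 7.18 CPM; log2 fold change 0.16, adjusted p = 0.01), Rnf34 (101 ± 7.81 against 92.6 ± 6.48 CPM; 0.12, adjusted p = 0.0293), Rnf10 (243 ± 8.82 against 231 ± 10.9 CPM; 0.081, adjusted p = 0.0423), Rnf39 (2.77 ± 1.12 against 1.90 ± 0.282 CPM; 0.44, adjusted p = 0.0579) and Rnft1 (11.5 ± 2.51 against 10.1 ± 1.35 CPM; 0.18, adjusted p = 0.0831). Each of these 5 lost its call without D1 proestrus library 1. In a single model of all 39 libraries Rnf150 had -0.079 (adjusted p = 0.638) and Rnft1 -0.018 (adjusted p = 0.954), so the direction of both turned. In ketamine libraries 4 of 14 RING genes (28.6%) were DE, against 18.0% of all genes, with Rnf19b D2-biased and the other 3 D1-biased.

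Those 3 were Rnf112, Rnf2 and Rnf6. Rnf112 (ENSRNOG00000002364) is a brain-enriched RING finger GTPase. After ketamine its diestrus D1 libraries had 213, 226, 210, 193 and 208 CPM and D2 libraries 193, 182, 196, 147 and 211 CPM, which overlap. Proestrus D1 libraries had 222, 231, 213, 211 and 230 CPM, all above the D2 libraries at 191, 192, 175 and 158 CPM. The log2 fold change was -0.26 (SE 0.0453, adjusted p = 0.000355), and -0.22 without library 32, which held the lowest value. In saline libraries pooled over stage Rnf112 was 194 ± 17.1 CPM in D2 and 208 ± 14.9 CPM in D1 (-0.089, adjusted p = 0.185). That call changed with the fit, and the cause was not tested. Rnf112 was called in 6 of 20 saline fits with a library left out, at -0.22 without D1 proestrus library 1 (adjusted p = 2.29e-05), -0.22 without D2 diestrus library 39 (adjusted p = 2.93e-05) and also without D1 proestrus libraries 17 and 33, D2 proestrus library 5 and D2 diestrus library 7. It was also called under 4 of 10 other settings, down to -0.24. Fitted by stage it was DE, at -0.23 for proestrus rats (adjusted p = 0.0175) and -0.19 for diestrus rats (adjusted p = 0.0816), although the groups overlapped in both, the exact permutation p was 0.27 and 0.214, and the ratio of group means was 0.929 and 0.938. Under other settings the staged estimates ran from -0.28 to -0.10 and from -0.21 to -0.07, with adjusted p up to 0.511 and 0.556, the diestrus call was lost in 6 of 10 fits with a library left out, and neither stage was called without surrogate variables. These staged fits share their libraries with the pooled one.

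Rnf2 (ENSRNOG00000002454), the Polycomb ligase that puts a single ubiquitin on a histone, had 28.7, 35.5 and 43.7 CPM as the lowest, median and highest of 9 D2 ketamine libraries and 35.2, 40.5 and 42.4 CPM in 10 D1 libraries (-0.17, SE 0.0445, adjusted p = 0.0098). The ranges overlap, and the D2 libraries were the more spread. In saline its group means lay between 38.2 and 39.8 CPM (-0.04, adjusted p = 0.657), and it was D1-biased there only in the single model of all libraries (-0.19, adjusted p = 0.0367). Rnf6, a RING ligase known for a target in growth cones, had 104 ± 7.55 CPM in D2 and 111 ± 4.8 CPM in D1 ketamine libraries (-0.11, SE 0.0318, adjusted p = 0.0165), a call that was lost without surrogate variables (-0.10, adjusted p = 0.165).

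Of 5 TRIM genes tested, 2 were DE in saline, against 28.8% of all genes, and 2 in ketamine, against 18.0%. Trim39 was D2-biased in saline (22.9 ± 1.78 against 21.0 ± 2.19 CPM; 0.15, adjusted p = 0.0432), and lost its call in 12 of 20 fits with a library left out. Trim41 was D1-biased in ketamine (69.0 ± 4.59 against 75.9 ± 3.97 CPM; -0.12, adjusted p = 0.0495), except without D1 diestrus library 12. Trim7, which binds the glycogen primer glycogenin, was the only gene called in opposite directions. In saline it had 1.97, 3.24 and 4.19 CPM as the lowest, median and highest of the D2 libraries and 2.84, 3.98 and 6.02 CPM in D1 (-0.35, SE 0.143, adjusted p = 0.0886). In ketamine libraries it had 2.68, 3.90 and 8.79 CPM in D2 and 2.13, 3.32 and 5.18 CPM in D1 (0.44, SE 0.155, adjusted p = 0.0626). The highest ketamine value was library 32, without which the estimate was 0.30 (adjusted p = 0.251), and the saline estimate in a single model of all libraries was 0.16 (adjusted p = 0.619). The saline call was lost in 11 of 20 fits with a library left out, at -0.0075 (adjusted p = 0.992) without D1 proestrus library 1 and -0.076 (adjusted p = 0.797) without D2 diestrus library 39. The interaction of cell type with treatment for Trim7 was 0.39 (SE 0.192, edgeR adjusted p = 1.0), so a difference between treatments was not shown.

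Among the 10 components of cullin ligases, only the F-box proteins Fbxw8 and Fbxo21 were DE, both D1-biased in saline (2 of 10, against 28.8% of all genes called). Fbxw8, which pairs with the cullin Cul7, had 22.4, 24.9 and 31.7 CPM as the lowest, median and highest in D2 and 26.1, 28.5 and 31.9 CPM in D1 (-0.14, SE 0.0509, adjusted p = 0.0522). Fbxo21 had 143 ± 5.83 against 150 ± 5.12 CPM (-0.067, adjusted p = 0.0664). Fbxw8 kept its call in 17 of 20 fits with a library left out and Fbxo21 in 13 of 20, and both lost it without D1 proestrus libraries 1 or 17. Cul4b, the one cullin measured, had 53.1 ± 5.73 in D2 and 57.2 ± 4.90 CPM in D1 saline libraries (adjusted p = 0.173). The 5 Klhl adaptors gave no call, and no cullin component was DE in ketamine. The lowest adjusted p there was that of Fbxo21 (-0.069, adjusted p = 0.164), with an estimate close to its saline one. Fbxo21 was called in ketamine under 3 of 10 other settings and in 2 of 19 fits with a library left out. Fbxw8 had 0.0054 in ketamine (adjusted p = 0.963).

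Receptors carry ubiquitinated proteins to the proteasome. Ubqln2 (ENSRNOG00000003099), a shuttle whose human gene is mutated in forms of motor neuron disease, was D1-biased in ketamine libraries. Diestrus ketamine D1 libraries had 420, 435, 415, 401 and 448 CPM, and D2 libraries 377, 387, 379, 344 and 353 CPM. Proestrus ketamine D1 libraries had 451, 411, 427, 420 and 454 CPM, and D2 libraries 350, 409, 393 and 409 CPM. Neither stage showed an overlap, although 2 proestrus D2 libraries came within 3 CPM of the lowest D1 one. The log2 fold change was -0.16 (SE 0.0315, adjusted p = 0.00118), and the exact permutation p was 0.00794 in diestrus and 0.0159 in proestrus. In saline the diestrus D1 libraries had 415, 383, 435, 432 and 443 CPM and the D2 libraries 372, 403, 438, 423 and 429 CPM. Proestrus D1 libraries had 414, 426, 414, 423 and 412 CPM and D2 libraries 397, 410, 406, 424 and 422 CPM. Both saline pairs overlap (-0.026, adjusted p = 0.587). Ubqln2 had the lowest p of the genes for the interaction of cell type with treatment (-0.13, SE 0.0476), which did not pass the adjustment over 14129 genes (edgeR adjusted p = 1.0). Ubxn4, an adaptor of the segregase that pulls proteins from membranes, was not DE (saline adjusted p = 0.147, ketamine 0.684).

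Of the 4 proteasome subunits measured, a small part of the complex, only Psmd12, a lid subunit of the regulatory particle, was DE, with D1-bias in saline, which is 1 of 4 (25.0%) against 28.8% of all genes, and all 4 saline estimates were negative, of which those of Psmd12, Psmc1 and Psmd2 turned positive in a single model of all libraries. Diestrus saline D1 libraries had 117, 126, 118, 117 and 116 CPM, all above the D2 libraries at 98.1, 111, 115, 109 and 105 CPM. Proestrus D1 libraries at 124, 117, 114, 118 and 122 CPM overlapped the D2 libraries at 121, 118, 106, 108 and 115 CPM. The pooled log2 fold change was -0.093 (SE 0.0342, adjusted p = 0.0579), and it was 0.018 (adjusted p = 0.821) in a single model of all libraries and -0.031 (adjusted p = 0.684) without libraries 22, 33 and 39. The ATPase Psmc1 had 220 ± 12.5 in D2 and 233 ± 13.1 CPM in D1 (-0.077, adjusted p = 0.113); it was called in 7 of 20 fits with a library left out and stood at -0.023, not called, without D1 proestrus library 1. Psmd2, a large base subunit, had 325 ± 12.0 and 336 ± 10.4 CPM (-0.035, adjusted p = 0.337), and Psmb1, a core subunit, 176 ± 5.79 and 182 ± 8.21 CPM (-0.041, adjusted p = 0.28). In ketamine libraries no subunit was DE, with estimates from -0.068 (Psmd2) to 0.0075 (Psmb1).

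Each of the 2 assembly chaperones was DE in 1 treatment, so 1 of 2 stood against 28.8% of all genes in saline and 18.0% in ketamine, counts too small to set them apart. Psmg1, which starts the ring of alpha subunits, was D1-biased in saline (34.2 ± 2.69 against 37.3 ± 2.74 CPM; -0.12, adjusted p = 0.0866), a call lost in 8 of 20 fits with a library left out, and had 0.12 (adjusted p = 0.194) in ketamine libraries. Psmg3 (ENSRNOG00000001273), a chaperone of the core particle, was D2-biased in ketamine (0.42, SE 0.123, adjusted p = 0.0288). Diestrus ketamine D1 libraries had 20.2, 17.6, 22.2, 17.7 and 28.7 CPM, and D2 libraries 31.7, 29.6, 27.1, 27.8 and 32.8 CPM. Proestrus ketamine D1 libraries had 15.9, 20.7, 17.9, 18.3 and 15.5 CPM, and D2 libraries 29.6, 17.0, 26.7 and 18.2 CPM. A single D1 library reached into the D2 range in diestrus, and in proestrus 2 of 4 D2 libraries lay among the D1 values. In saline, D2 libraries ran from 14.5 to 36.8 CPM and D1 libraries from 18.0 to 35.8 CPM (0.16, adjusted p = 0.379), with the lowest value in library 39.

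**Figure D4:**
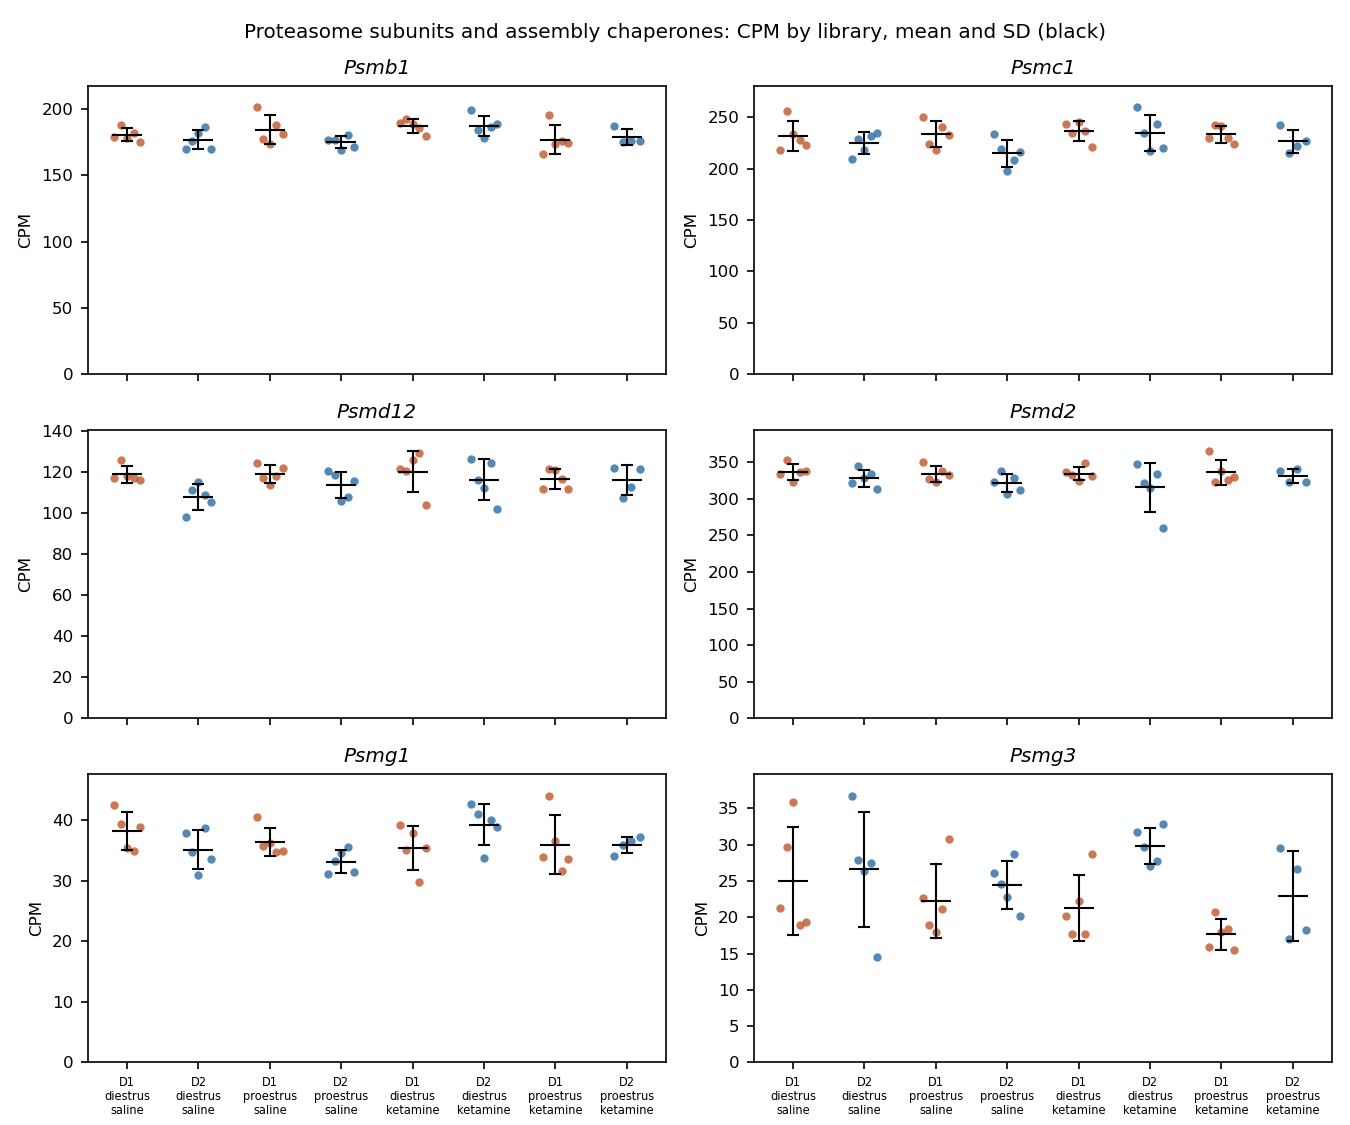
TMM-normalized CPM of the 4 proteasome subunits and the 2 assembly chaperones in every library (points; vertical axis from 0) by group (horizontal axis), with mean and SD in black. The subunits are level over the 8 groups, with ratios of highest to lowest group mean of 1.07 to 1.12, whereas Psmg3 spreads from 14.5 to 36.8 CPM.

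Usp16, a deubiquitinase that removes ubiquitin from histones, joined Usp25 in both treatments, with D2-bias. It had 7.87, 11.2 and 13.5 CPM as the lowest, median and highest of the saline D2 libraries and 8.10, 9.37 and 11.6 CPM in D1 (0.21, SE 0.0773, adjusted p = 0.0635). In ketamine the D2 values were 8.81, 12.7 and 14.5 CPM and the D1 values 8.62, 9.65 and 11.5 CPM (0.24, SE 0.0802, adjusted p = 0.0467). D1 and D2 ranges overlap in both. The saline call was lost in 10 of 20 fits with a library left out, and the ketamine call in 2 of 19. Usp9x, known for targets at synapses, was not DE (-0.038 and -0.044, adjusted p = 0.438 and 0.385).

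Saline rats were also compared within stage, 5 libraries against 5. In proestrus 2 of 48 genes (4.17%) were DE, against 5.41% of 13283 genes (2.8% D2-biased, 2.6% D1-biased), and in diestrus 2 of 48 (4.17%) against 4.11% of 13292 (1.73% and 2.38%). The genes were Usp25 and Rnf112 at both stages, each with D1-bias. Usp25 had -0.35 (SE 0.0815, adjusted p = 0.0345) in proestrus, where the call was lost without D1 proestrus library 25, and -0.32 (SE 0.065, adjusted p = 0.0169) in diestrus. Rnf19b did not pass the adjustment in these smaller edgeR fits (adjusted p = 0.186 and 0.216). Groups of D2 and D1 libraries did not overlap for 3 of 50 genes in diestrus saline (6.0%; 5.77% of all genes), 3 in proestrus saline (6.0%; 6.18%), 2 in diestrus ketamine (4.0%; 4.63%) and 5 in proestrus ketamine (10.0%; 5.5%). The 5 were Rnf10 and Rnf19b, higher in D2, and Rnf112, Ubqln2 and Usp25, lower.

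Other genes of the pathway came from a list of 149 genes for ubiquitin and related modifiers, activating enzymes, further ligases and adaptors, the COP9 signalosome, receptors, deubiquitinases, and SUMO ligases and proteases, of which 14 were paired and tested. In saline 5 of 14 (35.7%) were DE, against the 28.8% of all genes. Uchl1, the abundant neuronal ubiquitin hydrolase, was D1-biased in saline (1430 ± 75.6 against 1690 ± 121 CPM; -0.23, adjusted p = 0.000245) and in ketamine libraries (1530 ± 97.7 against 1650 ± 62.6 CPM; -0.12, adjusted p = 0.00571). The SUMO protease Senp7 was D2-biased in both (24.6 ± 5.34 against 17.7 ± 1.81 CPM in saline, 0.48, adjusted p = 0.000265; 0.29, adjusted p = 0.0254 in ketamine). Sqstm1, the autophagy receptor also called p62, was D1-biased in both (-0.074, adjusted p = 0.0682; -0.10, adjusted p = 0.045). Hectd4 (0.10, adjusted p = 0.0411) and Senp2 (0.082, adjusted p = 0.0771) were D2-biased in saline. In ketamine 3 of 14 (21.4%) were DE, against 18.0% of all genes.

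The next comparisons asked whether repeated ketamine changed these genes within each stage and cell type. No gene of the 48 was DE in any of the 4 (edgeR), while of all genes 1 of 13183 (0.00759%) was called in proestrus D1, 3 of 13214 (0.0227%) in diestrus D1, and 0 of 13414 and 0 of 13455 (0.0% each) in proestrus and diestrus D2. DESeq2 also called none of the 48. The all-gene counts are themselves unsteady, with 26 called in proestrus D1 with 3 surrogate variables and 16 with DESeq2 and 2, and 10 in diestrus D1 with the latter. At an unadjusted p under 0.05 there were 3, 3, 3 and 1 of 48 (6.25%, 6.25%, 6.25% and 2.08%), against 5.8%, 2.66%, 3.41% and 2.64% of all genes. In proestrus D1 Usp42, a deubiquitinase of the same family as Usp25, had 15.9 ± 1.27 CPM after ketamine and 17.9 ± 0.777 CPM after saline (n = 5 each; -0.18, adjusted p = 0.81), and Rnf112 had 0.11 (adjusted p = 0.852). Usp42 leaned the other way in diestrus D1, at 15.06 to 20.25 CPM after ketamine and 13.58 to 16.8 CPM after saline, and was not DE. That difference between stages was not tested. In diestrus D1 Trim39 had 21.4, 21.3, 22.0, 22.0 and 23.1 CPM after ketamine and 19.8, 21.0, 18.5, 19.4 and 19.0 CPM after saline. These groups do not overlap, the only such case among the 50 genes in the 4 comparisons, in a comparison where 0.411% of genes were so, and the difference did not pass the adjustment (0.16, adjusted p = 1.0). Uspl1, a SUMO peptidase by function, had 50.1 ± 5.71 against 53.6 ± 3.14 CPM there (-0.10, adjusted p = 1.0). In proestrus D2 Rnf39 had 1.74 ± 0.439 CPM (n = 4) against 2.69 ± 0.642 CPM (-0.76, adjusted p = 0.999), and Rnf5, a ligase in the endoplasmic reticulum membrane, 71.2 ± 7.57 against 67.9 ± 5.24 CPM (0.14, adjusted p = 0.999). In diestrus D2 Psmd2 had 316 ± 33.2 against 328 ± 11.6 CPM (-0.14, adjusted p = 1.0), the ketamine group holding 1 library at 261 CPM, and Ube2d1 had 34.5 ± 1.79 against 30.0 ± 2.06 CPM (0.16, adjusted p = 1.0).

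Estrous stage was compared within treatment and cell type. Again 0 of 48 genes were DE in each comparison with edgeR and with DESeq2, as were 0 of all genes (0.0%) with edgeR. The all-gene count was itself unsteady, in saline D1 at 5 with 3 surrogate variables and 14 (0.105%) without proestrus library 33. With DESeq2 and 2 surrogate variables it was 2 in saline D1, 2 in ketamine D1 and 4 in ketamine D2. With edgeR and no filter it was 2 in ketamine D1 and 1 in saline D2. At an unadjusted p under 0.05 there were 3 genes in saline D1, 4 in saline D2, 2 in ketamine D1 and 0 in ketamine D2, while 3.96%, 4.09%, 3.9% and 3.45% of all genes were under it. In saline D1 Trim39 was 22.4 ± 2.19 CPM in proestrus and 19.5 ± 0.953 CPM in diestrus (0.23, adjusted p = 0.999), and Psmg3 22.3 ± 5.08 and 25.0 ± 7.42 CPM (-0.22, adjusted p = 0.999). The F-box gene Fbxo28 had 16.4 ± 1.71 and 14.1 ± 1.12 CPM there (0.19, adjusted p = 0.999), and in saline D2 17.3 ± 0.827 and 15.1 ± 1.57 CPM (0.26, adjusted p = 0.987). Usp42 in saline D1 had 17.9 ± 0.777 and 15.6 ± 1.29 CPM (0.21, adjusted p = 0.999). The diestrus saline D1 group is shared by this comparison and by that of ketamine with saline in diestrus D1, so the values of Trim39, Usp42 and Fbxo28 in saline D1 rest on the same 5 rats, which had the lowest mean of the 8 groups for each of these genes. In ketamine D1 Psmb1 had 177 ± 10.9 CPM in proestrus and 187 ± 4.90 CPM in diestrus (-0.088, adjusted p = 0.999), and Rnf112 221 ± 9.41 and 210 ± 11.8 CPM (0.069, adjusted p = 0.999). In ketamine D2 Rnf39 had 1.74 ± 0.439 and 2.70 ± 0.842 CPM (-0.58, adjusted p = 0.998) and Fbxw8 28.2 ± 1.21 and 26.6 ± 2.16 CPM (0.12, adjusted p = 0.998).

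Over all libraries, the interaction of cell type with treatment gave 0 of 49 genes DE, and 0 of 14129 genes in all (0.0%, edgeR). DESeq2 gave none of the 49 either. At an unadjusted p under 0.05 there were 4 of 49 (8.16%), against 2.31% of all genes. They were Ubqln2 and Trim7, given above, Fbxw8 (0.14) and Psmg1 (0.18), all with an edgeR adjusted p of 1.0. Ubqln2, Psmg3, Rnf2, Rnf6 and Trim41 were DE in ketamine and in none of the saline comparisons by the main fits. With this interaction result, they are not shown to differ between the treatments.

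**Figure D5:**
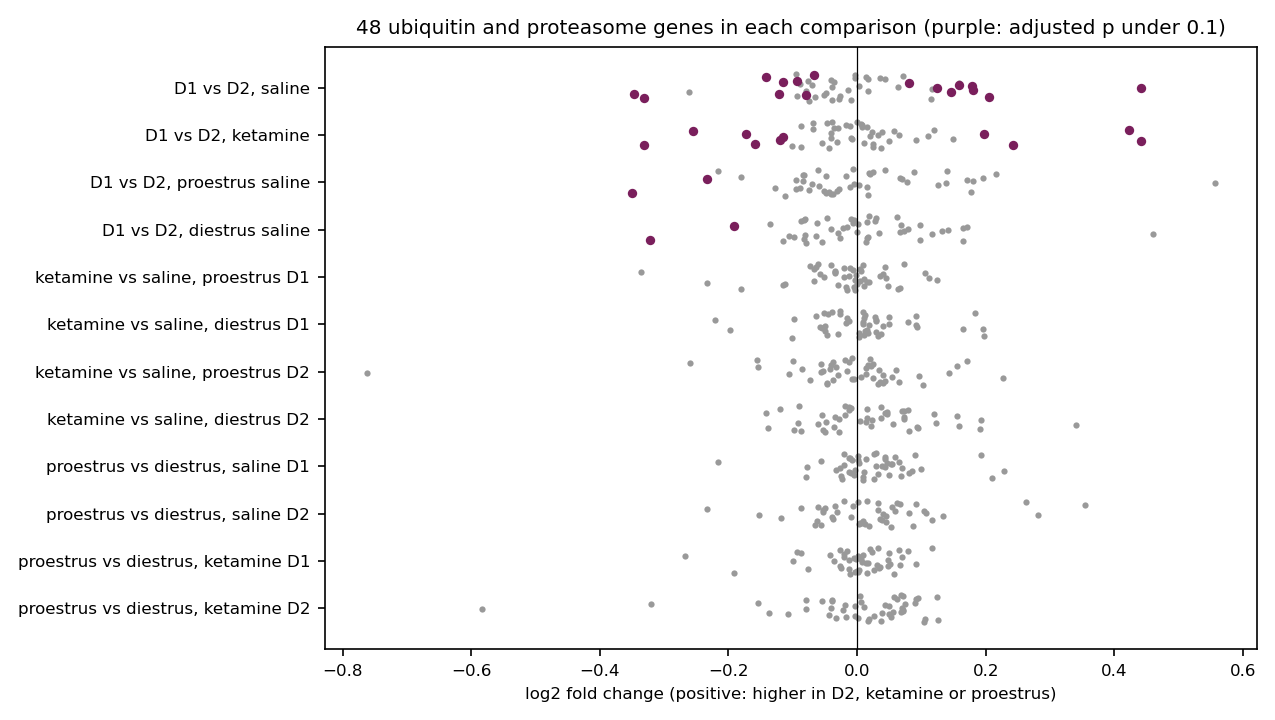
Log2 fold changes of the tested ubiquitin and proteasome genes in each comparison of 2 groups (1 point per gene), with called genes marked. Called genes appear between D1 and D2, and none in the 4 ketamine and 4 stage comparisons, where the counts are 0 of 48.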

How the data were processed

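Ribosome-bound mRNA was measured in 39 libraries, 1 per rat. Per the submitters' processing notes and the study's methods, the authors trimmed stranded poly(A) reads with fastp 0.23.4, checked them with FastQC 0.12.1 and estimated expected counts with Salmon 1.10.2 on mRatBN7.2 transcripts, and they tested with DESeq2 1.42.1. The deposited values are those expected counts per gene, as whole numbers and not normalized. Transcript reads shared between near-identical copies are split by estimation, so such genes are less certain.

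Identifiers were paired with symbols from the readable parts of the study's supplementary tables, of which only the names were used. The genes, the pathway list and the marker list were chosen with earlier results of these data known; 1 gene of the marker list is not reported here, and of its 46 others 10 were paired with an identifier. Named genes were every DE member, the most abundant member of each role, every proteasome member, the lowest p in each direction of each ketamine and stage comparison, the 5 lowest p in D1 against D2 under ketamine and the lowest p of the interaction. Single genes besides these (Klhl22, Cul4b, Ube2g2, Ube2v2, Ubxn4, Trim16, Trim25, Usp43) were chosen after their values were seen.

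Counts were filtered with filterByExpr (minimum count 10), scaled by TMM and fitted with the robust quasi-likelihood test of edgeR 4.0.16 (R 4.3.3) with 2 surrogate variables from sva 3.50.0, stage being a term where both stages were pooled. Adjustment was by Benjamini-Hochberg over all genes tested, with a threshold of 0.1. CPM are TMM-scaled with no surrogate variable removed, so fitted changes can differ from ratios of means. Exact permutation tests were two-sided, on CPM (scipy 1.17.1). Alternatives were 0, 1 or an estimated number of surrogate variables, DESeq2 1.42.0, its size factors, other filters, adjusted p under 0.05, 1 joint model of the 39 libraries and each library left out. The model was tested on simulated data. Depth sets precision, and in library 39 a gene at 10 CPM rests on few counts.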

Additional observations from a re-analysis of the deposited data

Results flagged for a closer look

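In 176 sets of 4 or 5 libraries (the 22 DE genes in 8 groups), 7 held a library far from the others of its group by Dixon's criterion, where chance gives about 1 in 20. Usp25 did so in 2 groups, at 40.6 CPM in D2 diestrus saline library 39 (others 30.8 to 32.5 CPM) and at 37.8 CPM in D2 diestrus ketamine library 32 (others 27.9 to 30.7 CPM). Library 39 is the shallow one, and library 32 had the lowest Adora2a of the D2 libraries; their part in these values was not tested. Psmd12 was at 126 CPM in D1 diestrus saline library 11, Psmg1 at 40.4 CPM in D1 proestrus saline library 1 and Rnf10 at 215 CPM in D1 proestrus saline library 33. Trim41 was at 66.2 CPM in D2 diestrus saline library 23, and Ube2d1 at 31.4 CPM in D2 diestrus ketamine library 24. For changes in opposite directions, the only test of the difference was the interaction of cell type with treatment, which gave no DE gene. Interactions with stage were not tested.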

How the results depend on the processing

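Among the values of named genes under other settings, 675 kept their direction and side of the threshold, 71 lost the call, 12 gained one and 16 turned. The 16 DE genes in saline (28.8% of all genes called) became 9 with 5 estimated surrogate variables (25.8%), 8 without a filter (17.0%), 9 with 10 counts in every library (23.2%), 8 in a single model of all libraries (13.1%), 7 at a threshold of 0.05 and 4 without libraries 22, 33 and 39 (11.9%), an alternative chosen after seeing the data. In proestrus saline 2 (5.41% of all genes) became 1 with 0 (7.31%) and 4 with 3 surrogate variables (8.21%). In diestrus saline 2 (4.11%) became 1 without a filter (3.82%), 6 in a single model (6.04%) and 1 at 0.05. With 1 library left out the counts ran from 3 to 19 in saline, 8 to 12 in ketamine, 1 to 3 in proestrus saline and 1 to 4 in diestrus saline, and stayed at 0 in the ketamine and stage comparisons (the interaction was not refitted so), while the share of all genes ran from 8.96% to 30.6%, 14.9% to 20.4%, 2.14% to 12.7% and 2.04% to 6.9% in the first 4. Directions turned in the single model for saline Rnf150 (-0.079), Rnft1 (-0.018), Trim7 (0.16), Psmd12 (0.018), Psmc1 (0.011) and Psmd2 (0.026), and for ketamine Psmc1 (0.0063), Psmd12 (0.0043), Fbxw8 (-0.015) and Rnf150 (-0.048). Ketamine values near 0 also turned for Psmb1 with 10 counts in every library (-0.00081), Rnft1 with 1 surrogate variable (0.024) and Fbxw8 with 0 (-0.00031), 1 (-0.0038) and 4 (-0.0092) surrogate variables and without libraries 22, 33 and 39 (-0.0012). With a library left out, ketamine Fbxw8 ranged from -0.015 to 0.023, Psmb1 from -0.0061 to 0.02, Rnf150 from -0.00095 to 0.085, Rnf39 from -0.043 to 0.15 and Rnft1 from -0.036 to 0.056. The cause of these changes was not tested, apart from a threshold of 0.05 being the stricter one. No paired analysis was run. No library number is shared between groups, and the labels name no set, litter or batch that would tie libraries together. A fit blocked by the order of the library numbers was not tried. Depth limits Rnf39, Trim7, Trim25 and Usp43 most.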
